A study of Mus musculus with 86 samples.

Results

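The CELF and ELAV families are the RNA-binding proteins that read GU-rich and U-rich elements, and the 10 mouse genes that encode them (Celf1 to Celf6 and Elavl1 to Elavl4) were followed here through soma and neurite RNA of cells that lost TDP-43 or carried an ALS mutant of it. The members were chosen by gene name. All 10 were found among the 53664 genes that had a transcript in the CAD and N2A files, and all 10 passed the filter on low counts in the 3 experiments. CELF proteins bind GU-rich elements and act in alternative splicing and in deadenylation and decay of the mRNAs they bind. ELAV proteins bind U-rich and AU-rich elements in 3′ UTRs, where they often stabilise mRNAs or raise their translation. Elavl1 (HuR) is made in most cell types, whereas Elavl2 (HuB), Elavl3 (HuC) and Elavl4 (HuD) are classical neuronal proteins. TDP-43 itself binds UG repeats, so its targets overlap in sequence with those of CELF proteins.

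The libraries came from soma and neurite fractions of CAD cells, a mouse neuronal line of brain origin, and N2A cells, a mouse neuroblastoma line. In the CAD and N2A experiments the endogenous TDP-43 gene had been ablated in single-cell clones that carried a doxycycline-off HA-tagged TDP-43 transgene ending in the TDP-43 3′ UTR. Wild-type cells are these clones without doxycycline, so they also lacked the endogenous gene, and knockout cells are the clones with doxycycline. The labels give 2 μg/mL doxycycline for 48 h and the methods 1 μg/mL. No CAD or N2A library came from cells with doxycycline that kept TDP-43. An effect of the drug itself was not tested and cannot be told apart from loss of TDP-43 there. Changes with loss of TDP-43 below are therefore changes with doxycycline in these clones. In the Q331K experiment, polyclonal CAD cells that kept their endogenous TDP-43 expressed a doxycycline-induced HA-tagged transgene of wild-type TDP-43 (WT transgene) or of the ALS mutant Q331K (Q331K transgene), in both cases with a synthetic 3′ UTR. Cells were grown on porous membranes, the soma were scraped off the upper face, and the neurites that had grown through the pores were collected from the underside. Each of the 3 experiments held 2 genotypes, 2 compartments and 3 replicates per group, 12 libraries in all. The labels do not say whether replicates were separate cultures, so the p-values measure the spread between these libraries. The 3 experiments were fitted separately.

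Libraries held 22726534 to 32895542 estimated counts in the CAD and N2A experiments and 9783050 to 15870647 in the Q331K experiment. Tardbp, the gene of TDP-43, fell from 884 ± 187 TPM to 136 ± 22.1 TPM in CAD soma and from 873 ± 113 to 245 ± 15.2 TPM in N2A soma (SD, n = 3). It stood at 1418 ± 141 TPM with the WT transgene and 1429 ± 44.9 TPM with the Q331K transgene in soma. Whether reads of the transgenes are counted with Tardbp is not stated, so these levels may hold both sources. All 6 neuronal markers (a list of genes typical of neurons) were at 1 TPM or more in every group. Their summed level ran from 365 to 1710 TPM over the CAD and N2A libraries, against at most 3.17 TPM for the 3 astrocyte markers, 1.75 TPM for the 3 microglia markers, 12.3 TPM for the 3 oligodendrocyte markers and 3.17 TPM for the 3 fibroblast markers. The summed fibroblast markers reached 27.1 TPM in the Q331K experiment, and most of this was Dcn. In soma with the WT and the Q331K transgene, Dcn was at 19.9 and 23.2 TPM. Col1a1 was at 1.31 and 1.11 TPM there, and Col1a2 at 0.0872 and 0.139 TPM. Of the catecholaminergic markers after which CAD cells are named, Dbh was at 15.3 TPM in wild-type CAD soma, whereas Th (2.44 TPM) and Ddc (0.887 TPM) were low. In bulk samples, fewer cells of a type and less RNA per cell cannot be told apart. TPM (a transcript's share of all transcripts of a library, so a level per length) is given for each library and to compare genes, whereas fold changes and tests between groups are on edgeR's TMM scale, so that a fitted change can differ from the ratio of the TPM means. Mir6236, Gm24245, Gm24270 and Gm23935 took 27.3% to 70.9% of the TPM in the CAD and N2A neurite libraries and 5.77% to 38.3% in the CAD and N2A soma libraries. The TPM of the members was also lower in neurites than in soma, and the part of these small RNA genes in that was not tested.

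To show how many GU repeats, a form of the TDP-43 motif, these genes themselves carry, GT repeats were searched in their 3′ UTRs. The paper's definition of the motif also holds GUAUG, which was not counted here. Below is the longest run of alternating G and T in the longest annotated 3′ UTR of Elavl4 and Celf6, which rose in at least 1 compartment of CAD cells, of Celf2, Celf5 and Elavl2, which fell in at least 1 of them, and, for comparison, of Celf3, which passed the test in neither. Capitals mark the run and the letters are those of the RNA strand in GRCm38 (mm10), written as DNA.
Elavl4: ctgtTGTGTGTGTGTatgt
Celf3: gaggGTGTGTGTGTGgggg
Celf2: ttaaTGTGTGTGTGaatg
Celf5: gaacGTGTGTGTccgg
Celf6: agtgGTGTGTGctct
Elavl2: gcttTGTGTGatgt
The Elavl4 stretch lies at chr4:110204865-110204883 on the minus strand, in the 3′ UTR of Elavl4-204. The Celf3 stretch lies at chr3:94491692-94491710 on the plus strand (Celf3-215), and the runs in both genes are 11 bases long. The stretches of Celf2 (chr2:6543470-6543487, Celf2-214), Celf5 (chr10:81459625-81459640, Celf5-201) and Elavl2 (chr4:91251958-91251971, Elavl2-201) are on the minus strand, with runs of 10, 8 and 6 bases. The Celf6 stretch (chr9:59607213-59607227) is on the plus strand, with a run of 7 bases. The longest run of Celf4, which rose in both compartments of both lines, is 5 bases long and is not printed here. It was the shortest of the 10, and the runs of Elavl4 and Celf3 were the longest. The runs of Celf1, Elavl1 and Elavl3, which passed in neither CAD compartment, are 9, 8 and 6 bases long.

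Counted with overlaps on the RNA strand alone, GTGTG and TGTGT together occurred 7.28 times per kb in the 2610 bases of the Elavl4 3′ UTR, and 18.2% of the 13718 genes with a 3′ UTR had as dense a match (75.9% of them held a GTGTG and 81.1% a TGTGT). The density was 6.52 per kb in Celf1 and 6.51 per kb in Celf3, against a median of 3.75 per kb over these genes. Celf4, the member whose RNA changed most (below), was the sparsest of the 10, with 1 GTGTG and 2 TGTGT in 2124 bases (1.41 per kb, a density that 80.0% of genes reached). Elavl3 (1.72 per kb), Elavl2 (2.42 per kb) and Celf6 (2.67 per kb) were also under the median. The exact consensus of the GU-rich element of CELF proteins was in none of the 10 and in 4.4% of genes. ATTTA, the core of AU-rich elements, occurred 17 times in Elavl1, as often as in 1.82% of genes, and 15 times in Elavl2. U runs written TTTTT, overlapping matches included, occurred 78 times in Celf2, a count that 0.445% of genes reached, and 55 times in Elavl1. The counts of ATTTA and TTTTT are not scaled by length. These 3′ UTRs are long, at 7381 bases in Celf2 and 4218 bases in Elavl1 against a median of 1401 bases. In Celf2-206, the most abundant Celf2 transcript in CAD cells, TTTTT occurred 56 times in 3851 bases. Matches are a description of these letters and no measure of binding.

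Wild-type CAD soma held Elavl4 at 134 ± 26.6 TPM and Celf3 at 125 ± 22.9 TPM, followed by Elavl1 at 82.3 ± 8.96 TPM, Celf1 at 61.4 ± 10.8 TPM and Elavl3 at 37.6 ± 6.72 TPM (SD, n = 3). Celf4 stood at 27.9 ± 4.48 TPM, Celf6 at 20.4 ± 4.95 TPM, Elavl2 at 14.2 ± 2.70 TPM, Celf5 at 12.6 ± 2.33 TPM and Celf2 at 4.86 ± 0.753 TPM. The ranges of Elavl4 and Celf3 overlapped, as did those of each neighbouring pair from Elavl3 down to Celf5, whereas Elavl1, Celf1 and Celf2 were set apart from their neighbours in this order. Wild-type N2A soma had Celf3 (136 ± 10.0 TPM) on top, and Elavl1 (73.5 ± 7.72), Elavl3 (62.5 ± 8.88), Celf1 (61.8 ± 5.16), Elavl4 (56.5 ± 6.53) and Elavl2 (49.5 ± 5.33 TPM) overlapped with their neighbours. Celf5 (22.2 ± 1.48 TPM) and Celf6 (18.2 ± 2.71 TPM) came next, and Celf4 followed at only 4.25 ± 0.147 TPM. Celf2 was close to the limit of detection in N2A cells, with 1 to 20 estimated counts in each of the 12 libraries and at most 0.285 TPM. Soma with the WT transgene had Elavl4 at 124 ± 8.81 TPM, Elavl1 at 96.6 ± 6.82 TPM and Celf3 at 68.8 ± 3.58 TPM as its highest members, and Celf5 (5.93 ± 1.08 TPM) and Celf2 (5.91 ± 1.58 TPM) as its lowest.

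**Figure D1:**
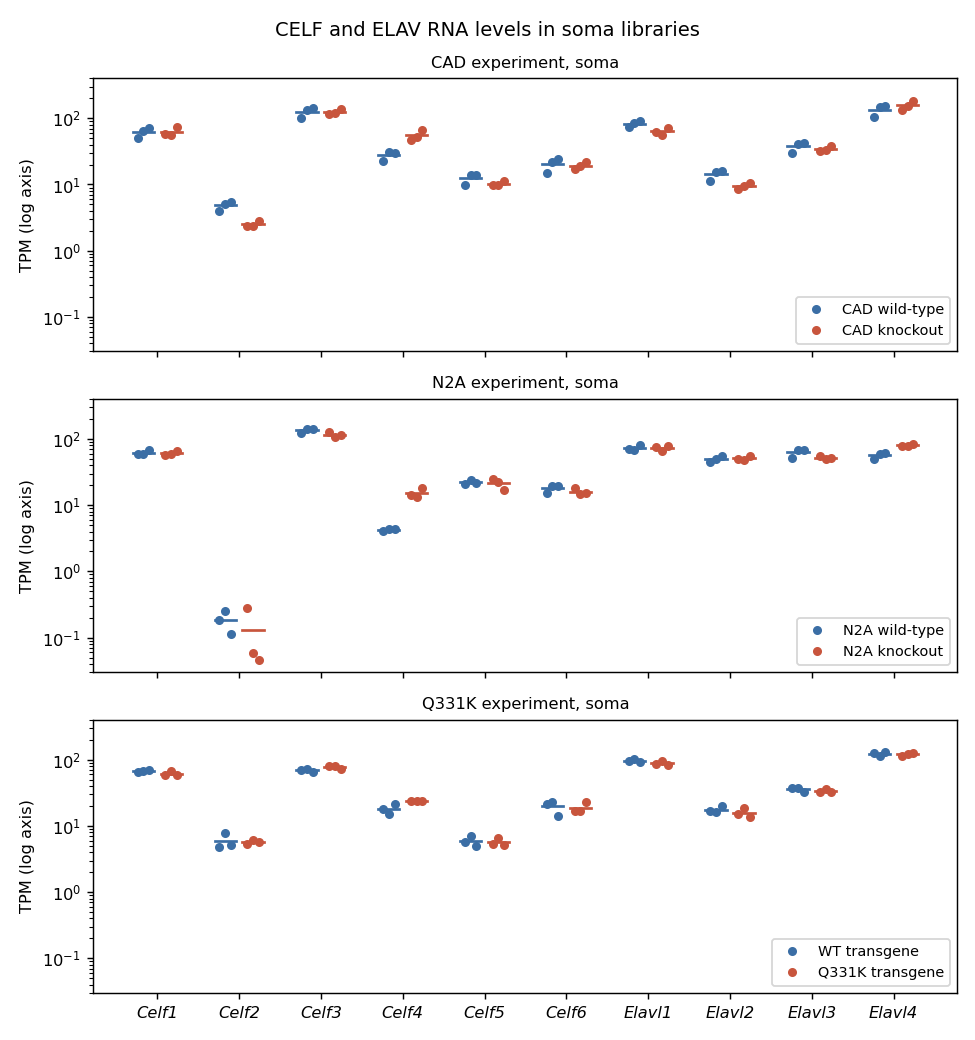
Level of each member in soma libraries, in TPM on a log axis, by experiment. Each point is a library, each short line the mean of 3 libraries, blue the control genotype and red the knockout or Q331K genotype. Celf4 in knockout cells lies above wild-type in both lines, and Celf2 in N2A cells lies near the bottom of the scale.

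Celf4, a brain-expressed CELF protein that regulates the stability and translation of neuronal mRNAs, gave the largest change among the members. In CAD soma it was at 22.7, 30.6 and 30.3 TPM in the wild-type libraries and 47.4, 52.0 and 66.7 TPM in the knockout libraries. In N2A soma the wild-type libraries had 4.09, 4.36 and 4.32 TPM and the knockout libraries 14.2, 13.4 and 18.2 TPM. Neither pair of groups overlapped, and the knockout level of N2A cells stayed below the wild-type level of CAD cells, each line having been quantified in libraries of its own. With edgeR's quasi-likelihood test over 17343 genes in CAD and 17912 genes in N2A cells, Celf4 rose by 1.36 ± 0.07 on the log2 scale in CAD soma (± SE, 2.57-fold, adjusted p = 1.54e-09) and by 2.25 ± 0.11 in N2A soma (4.76-fold, adjusted p = 6.78e-09). A change at least this large in either direction was found for 3.75% and 0.72% of all genes tested. Neurites gave 4.47, 7.03 and 7.37 TPM in wild-type CAD cells and 19.8, 20.5 and 20.5 TPM in knockout cells. In N2A neurites Celf4 was at 0.938, 1.15 and 1.34 TPM in wild-type and 4.48, 7.18 and 7.82 TPM in knockout libraries. The rise on the log2 scale was 1.51 ± 0.08 in CAD neurites (edgeR adjusted p = 6.11e-10) and 2.36 ± 0.11 in N2A neurites (edgeR adjusted p = 3.08e-09), again with no overlap.

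The fold rise of Celf4 was larger in N2A than in CAD cells when tested directly in 1 fit of the 24 libraries of both lines. The difference was 0.97 ± 0.15 on the log2 scale in soma (edgeR adjusted p = 5.12e-05) and 0.90 ± 0.15 in neurites (adjusted p = 0.000112). In TPM the step was larger in CAD cells, from 27.9 to 55.4 in soma against 4.25 to 15.3 in N2A soma. In neurites the means went from 6.29 to 20.2 TPM in CAD and from 1.14 to 6.49 TPM in N2A cells. Celf4 took 11.1 ± 0.523% of the summed CELF TPM in wild-type CAD soma and 20.1 ± 1.22% in knockout soma, and 1.76 ± 0.0757% and 6.64 ± 1.09% in N2A soma (SD, n = 3). The summed CELF level itself was 252 ± 45.9 TPM in wild-type and 274 ± 33.8 TPM in knockout CAD soma, and 242 ± 17.3 and 230 ± 11.1 TPM in N2A soma, with overlapping ranges in both lines. In CAD neurites the sum was higher in knockout cells without overlap (57 ± 9.61 and 84.6 ± 3.77 TPM). In N2A neurites it overlapped (71 ± 20.8 and 78.5 ± 24.5 TPM). The most abundant Celf4 transcript, Celf4-202, went from 11.4 ± 2.84 to 26.9 ± 4.28 TPM in CAD soma, and Celf4-201 (3.47 ± 0.941 to 6.54 ± 1.37 TPM) and Celf4-206 (3.12 ± 1.06 to 7.20 ± 0.997 TPM) were higher too. Thus the higher level was spread over several transcripts of the gene.

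**Figure D2:**
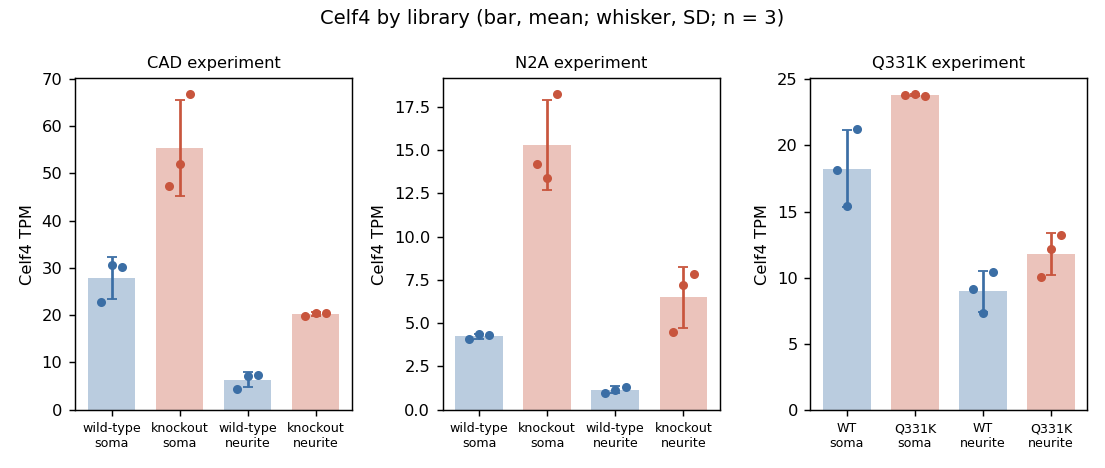
Celf4 level in TPM in each library, by experiment, genotype and compartment. Bars are means, whiskers SD and points the 3 libraries of a group, with blue for the control genotype and red for the knockout or Q331K genotype. Knockout bars of CAD soma stand at 55.4 TPM against 27.9 TPM, and those of N2A soma at 15.3 TPM against 4.25 TPM.

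In CAD soma, 4 of the 10 members passed an FDR of 0.01, against 22.8% of all genes tested. Celf4 and Elavl4 rose, where 11.2% of all genes did, and Celf2 and Elavl2 fell, where 11.6% did. The median change of the 10 members was 0.05 on the log2 scale and that of all genes 0.002. Elavl4 (HuD), a neuronal protein of neurite outgrowth and plasticity, was at 103, 146 and 152 TPM in wild-type and 135, 154 and 183 TPM in knockout libraries, and these ranges overlapped. On the TMM scale it rose by 0.46 ± 0.09 (log2, edgeR adjusted p = 0.000707). Celf2, a splicing regulator of brain and heart, was at 4.01, 5.14 and 5.43 TPM in wild-type and 2.33, 2.38 and 2.84 TPM in knockout libraries. It fell by 0.71 ± 0.11 on the log2 scale (edgeR adjusted p = 8.41e-05), with groups that did not overlap. Elavl2, which acts in neuronal differentiation, was at 11.1, 15.6 and 16.0 TPM in wild-type and 8.56, 9.49 and 10.4 TPM in knockout libraries, again without overlap. Its fall of 0.48 ± 0.11 (log2, edgeR adjusted p = 0.0023) did not pass the threshold without wild-type replicate 2 (-0.40, edgeR adjusted p = 0.0173) or knockout replicate 1 (-0.42, adjusted p = 0.0129). Elavl1 was at -0.25 ± 0.07 (edgeR adjusted p = 0.0128, 0.00273 with DESeq2). Celf1, Celf3, Celf5, Celf6 and Elavl3 ran from -0.30 to 0.18 without passing.

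In CAD neurites, 5 of the 10 members passed, against 25.3% of all genes tested. Celf4, Elavl4 and Celf6 rose, where 11.8% of all genes did, and Celf5 and Elavl2 fell, where 13.5% did. Celf5, a CELF protein of the nervous system, was at 1.63, 2.24 and 2.13 TPM in wild-type and 0.796, 1.24 and 1.40 TPM in knockout neurites. The 2 groups did not overlap, and it fell by 0.89 ± 0.16 on the log2 scale (edgeR adjusted p = 0.000289). These values rest on 289 to 307 estimated counts per wild-type library and 134 to 199 per knockout library. Celf6, a CELF protein of brain, kidney and testis, was at 4.92, 7.44 and 7.92 TPM in wild-type and 9.22, 11.4 and 10.8 TPM in knockout neurites. It rose by 0.45 ± 0.07 (log2, edgeR adjusted p = 0.000151), with no overlap. Elavl4 was at 31.2, 44.4 and 53.7 TPM and then 63.5, 68.5 and 63.3 TPM, with all knockout libraries above all wild-type libraries, and rose by 0.49 ± 0.09 (edgeR adjusted p = 0.000397). Elavl2 was at 3.06, 5.08 and 6.97 TPM in wild-type and 3.97, 4.29 and 4.10 TPM in knockout neurites. Its groups overlapped on this scale, and its fall of 0.45 ± 0.11 (log2, edgeR adjusted p = 0.00399) was lost when any of 5 of the 6 neurite libraries was left out, all but wild-type replicate 1, with an adjusted p of up to 0.0339 (without wild-type replicate 3).

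In N2A soma, 2 of the 10 members passed, against 16.1% of all genes tested, and both rose (10.9% of all genes rose). Besides Celf4 this was Elavl4, at 49.1, 59.3 and 61.3 TPM in wild-type and 78.1, 79.2 and 83.5 TPM in knockout soma. The groups did not overlap, and the rise was 0.59 ± 0.13 (log2, edgeR adjusted p = 0.00462). It did not pass without wild-type replicate 1 (0.44, edgeR adjusted p = 0.0176), knockout replicate 2 (0.53, adjusted p = 0.0271) or knockout replicate 3 (0.63, adjusted p = 0.0134), or with upper-quartile scaling (0.49, adjusted p = 0.0108). In N2A neurites, 2 of 10 passed, against 11.6% of all genes. Celf4 rose, where 6.48% of all genes did, and Elavl3 fell, where 5.1% did. Elavl3, a neuronal ELAV protein, was at 11.98, 22.8 and 20.3 TPM in wild-type and 10.7, 20.2 and 17.7 TPM in knockout libraries. These ranges overlapped, and the fall was 0.40 ± 0.08 on the log2 scale (edgeR adjusted p = 0.00193). It did not pass with length-scaled counts (-0.36, adjusted p = 0.0146) or without any of wild-type soma replicates 2 and 3, wild-type neurite replicate 2 and knockout neurite replicates 1 and 3, with an edgeR adjusted p of up to 0.0151. Elavl1 was at -0.33 ± 0.08 in N2A neurites (edgeR adjusted p = 0.0122, 0.000935 with DESeq2), and the fitted values of the barely detected Celf2 had an SE of 0.61 in soma and 0.77 in neurites.

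**Figure D3:**
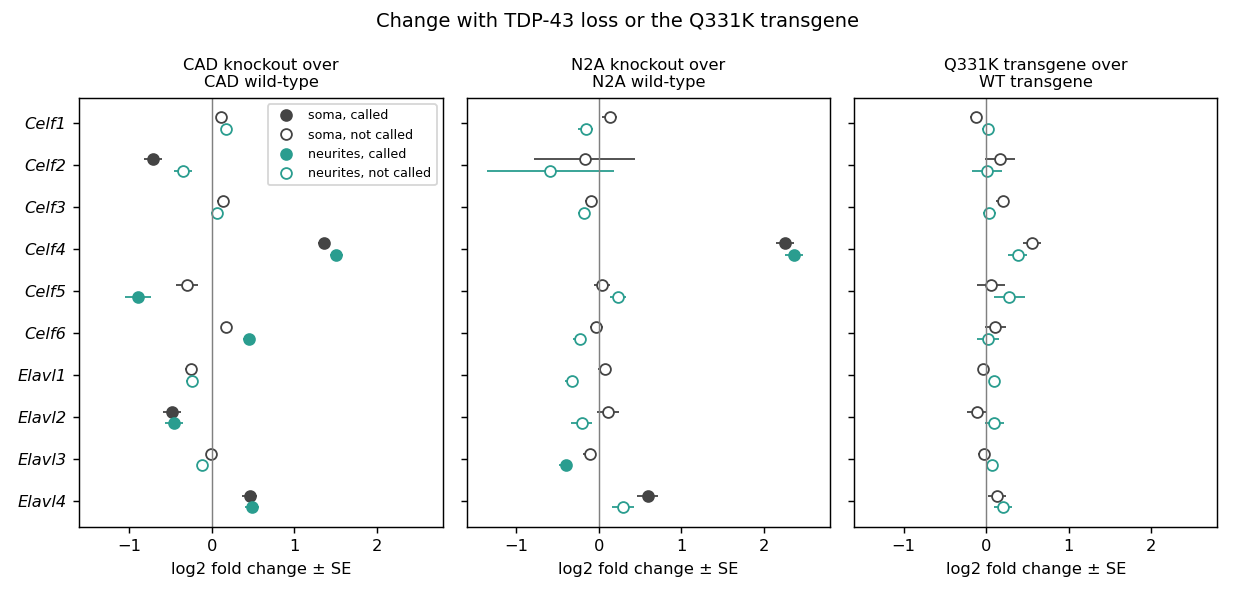
Change of each member with loss of TDP-43 in CAD (left) and N2A cells (middle) and with the Q331K against the WT transgene (right), as the log2 fold change with its SE from edgeR. Grey points are soma and green points neurites, and filled points pass an FDR of 0.01. Celf4 reaches 1.36 to 2.36 with loss of TDP-43, and no point is filled on the right.

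Celf5 and Celf6 also differed between the lines in neurites. The knockout effect of N2A cells minus that of CAD cells was 1.17 ± 0.19 for Celf5 (log2, edgeR adjusted p = 0.000126), since it was at -0.89 in CAD and 0.23 ± 0.10 in N2A neurites. For Celf6 this difference was -0.63 ± 0.11 (adjusted p = 0.000337), from 0.45 in CAD and -0.23 ± 0.08 in N2A neurites. In all, 3 of the 10 members differed between the lines in neurites, where 9.18% of the 19700 genes did, and 1 in soma, where 10.5% did. Elavl2 in soma (0.67 ± 0.20, edgeR adjusted p = 0.0188) did not pass in the main fit and passed with DESeq2 (0.61, adjusted p = 0.00571).

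The Q331K transgene gave no call for any member, and none for any of the 13940 genes tested in soma or neurites with edgeR (0.0% called), whereas 995 genes in soma and 1372 in neurites had an unadjusted p under 0.05. Of the members, 2 had such a p in soma and 1 in neurites. Celf4 was at 18.2, 15.4 and 21.2 TPM in soma with the WT transgene and 23.8, 23.9 and 23.7 TPM with the Q331K transgene, without overlap. Its change of 0.55 ± 0.11 on the log2 scale (edgeR adjusted p = 0.271) passed when the filter on low counts was dropped (0.56, adjusted p = 3.32e-05), as did 0.547% of the 25761 genes then tested. In neurites it was at 9.14, 7.34 and 10.5 TPM with the WT transgene and 10.1, 12.2 and 13.2 TPM with the Q331K transgene, which overlapped, at 0.38 ± 0.11 (edgeR adjusted p = 0.30). The other members lay between -0.12 and 0.20 in soma and between 0.01 and 0.28 in neurites.

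To ask where these RNAs lay in the cell, the log2 ratio of neurite over soma was taken on the TMM scale, on which a value of 0 is close to the median gene. In wild-type CAD cells 3 of 10 members passed, against 41.4% of all genes, and all 3 were lower in neurites (17.7% of all genes were). These were Celf5 at -0.88 ± 0.14 (edgeR adjusted p = 7.51e-05), Celf3 at -0.61 ± 0.07 (1.78e-06) and Elavl3 at -0.46 ± 0.06 (1.04e-05). The deviations of same-numbered wild-type soma and neurite libraries correlated in all 3 pairs. With the replicate number as a block over all groups, knockout included, 5 members passed. Celf4 was then lower (-0.20, edgeR adjusted p = 0.00565) and Elavl2 higher in neurites (0.29, adjusted p = 0.00756) besides these 3. A term shared only by the soma and neurite libraries of a genotype and number follows this pairing more closely. With that term no member gained or lost a call for the ratio, so Celf4 and Elavl2 did not pass. In wild-type N2A cells 7 of 10 passed, against 59.2% of all genes. Celf5 (-1.31 ± 0.10) and Celf3 (-0.51 ± 0.07) were lower in neurites, where 26.6% of all genes were, and Celf1 (0.34 ± 0.09), Celf6 (0.63 ± 0.08), Elavl1 (0.46 ± 0.09), Elavl2 (0.88 ± 0.14) and Elavl4 (0.65 ± 0.13) higher, where 32.5% were. With the WT transgene 2 of 10 passed, against 27.5% of all genes, and both were lower in neurites (12.6% of all genes were), Celf3 at -0.35 ± 0.08 (edgeR adjusted p = 0.00199) and Celf5 at -0.69 ± 0.18 (adjusted p = 0.00671). Celf3, a neuronal splicing factor, and Celf5 were thus lower in neurites than the median gene in each control genotype, though in the Q331K experiment the call of Celf5 was lost without any of 5 libraries (WT transgene soma replicates 1 and 2 and all 3 WT transgene neurite replicates, adjusted p up to 0.0461) and that of Celf3 without WT transgene replicate 1 of soma or of neurites (up to 0.017). On the TPM scale all members were lower in neurites than in soma, at 15.9% to 35.4% of their soma level in wild-type CAD cells.

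The N2A ratios moved with the scaling. Upper-quartile scaling shifted the median of all genes from -0.03 to -0.33, and Celf1 (0.05), Elavl1 (0.16) and Elavl4 (0.36) then no longer passed while Elavl3 did (-0.45, edgeR adjusted p = 8.63e-05). With at least 10 counts in every library, Celf1 (0.11) and Elavl1 (0.22) did not pass either. The call of Celf1 was also lost without wild-type soma replicate 1 (edgeR adjusted p = 0.0227) or 2 (0.0245) or wild-type neurite replicate 3 (0.0184). In CAD cells Celf4 was at -0.20 ± 0.08 (adjusted p = 0.0346) and passed in 5 of 7 alternatives, among them DESeq2 (-0.24, adjusted p = 0.00545).

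**Figure D4:**
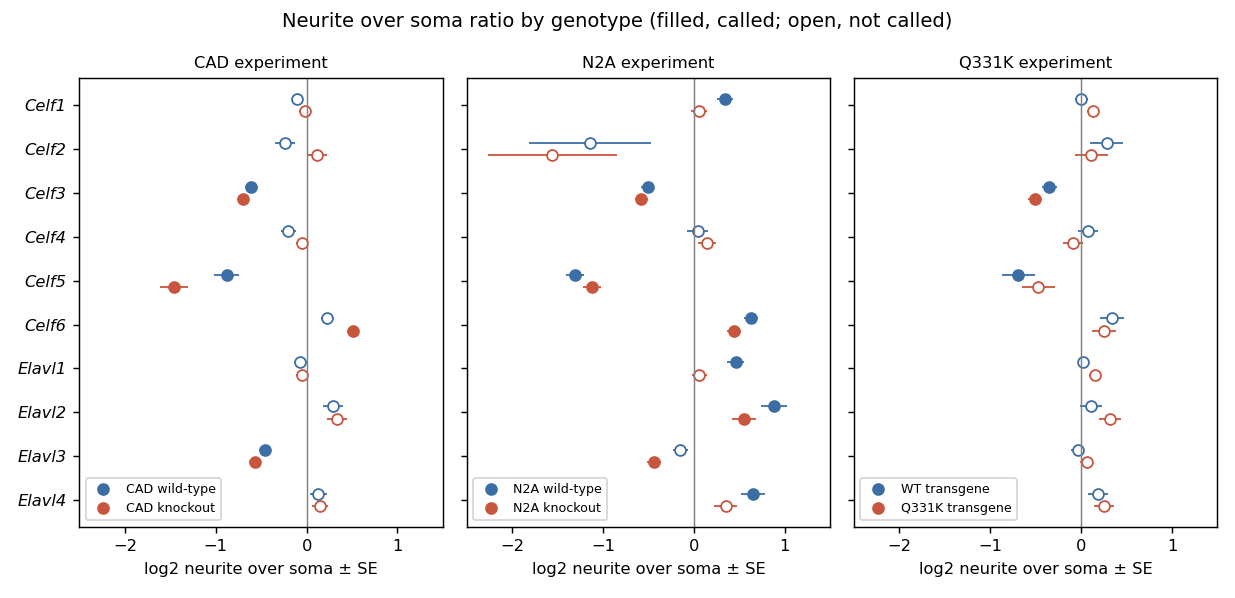
The log2 neurite over soma ratio of each member with its SE, from edgeR on the TMM scale, in the control genotype (blue) and the knockout or Q331K genotype (red) of each experiment. Filled points pass an FDR of 0.01. Celf3 and Celf5 lie left of 0 in each panel, and the largest gap between genotypes in CAD cells is that of Celf5, which did not pass the test of the change.

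The change of this ratio with genotype passed for no member in any of the 3 experiments. It was called for 0.432% of all genes in CAD, 0.1% in N2A and 0.0% in the Q331K experiment, and 3, 3 and 0 of the 10 members had an unadjusted p under 0.05 (1824, 5580 and 605 of all genes). In CAD cells the members ran from -0.59 ± 0.21 for Celf5 (edgeR adjusted p = 0.286) to 0.36 ± 0.16 for Celf2 (adjusted p = 0.431), with Celf6 at 0.28 ± 0.10 (adjusted p = 0.331). In N2A cells they ran from -0.42 ± 0.97 for Celf2 to 0.19 ± 0.14 for Celf5. Elavl1 was at -0.40 ± 0.12 (edgeR adjusted p = 0.0526) and passed with DESeq2 (-0.44, adjusted p = 0.00336), which called this change for 10.7% of all genes. Celf4, whose level rose most, had a change of the ratio of 0.15 ± 0.11 in CAD and 0.11 ± 0.15 in N2A cells, so that its rise in neurites and in soma differed by less than could be called. No member differed in this change between the lines (0.203% of all genes did), with Celf5 at 0.75 ± 0.26 (edgeR adjusted p = 0.137).

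Since salmon assigns reads to transcripts, the share of a member's most abundant CAD transcript was also followed. This transcript has the highest mean over all 12 CAD libraries, knockout included. For Elavl4 it is Elavl4-204, although Elavl4-202 and Elavl4-206 were higher in wild-type soma, so the choice itself favoured a transcript that is high in knockout cells and the CAD shares are a description. Elavl4-204 made up 13.3% to 17% of the Elavl4 TPM in wild-type CAD soma and 32.1% to 33.6% in knockout soma, and its level went from 20.7 ± 3.88 to 51.7 ± 9.08 TPM (SD, n = 3). In CAD neurites its share was 9.39% to 20.5% in wild-type and 26.6% to 36.9% in knockout cells, again without overlap. In N2A soma it was 14.5% to 17.4% and then 18.3% to 27.8%, and in N2A neurites 13.1% to 16.9% and then 18.0% to 23.4%. With the WT transgene the share ranged from 19.9% to 33.4% in soma and with the Q331K transgene from 29.1% to 31.5%, which overlapped. In neurites it went the other way, from 24.4% to 39% with the WT transgene and from 12% to 25.6% with the Q331K transgene, also with overlap. A two-sided exact permutation test of 3 against 3 cannot go below 0.1, so these shares are given without a call.

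The Elavl4 transcripts did not move alike. Elavl4-207, with a first exon further upstream, went from 4.23 ± 1.15 to 11.2 ± 1.55 TPM in CAD soma. Elavl4-202, which shares the first exon of Elavl4-204, was at 36.9 ± 9.95 TPM in wild-type and 33.2 ± 6.39 TPM in knockout CAD soma, and Elavl4-206, with another first exon, at 28.5 ± 5.71 and 21.9 ± 4.09 TPM. The last exon of Elavl4-202 starts 42 bases upstream of that of Elavl4-204 (chr4:110206660-110206701, minus strand). Their annotated ends differ too, at 110203737 in Elavl4-202 and 110203722 in Elavl4-204. Summed over transcripts with either start, those with the downstream start took 66.4 ± 2.77% of TPM in wild-type and 75.1 ± 1.31% in knockout CAD soma. In N2A soma they took 62.4 ± 3.71% and 66.9 ± 1.98%, and the groups overlapped. In CAD neurites the values were 69.2 ± 3.83% and 76.1 ± 1.9%, without overlap, whereas in N2A neurites the knockout libraries lay lower than the wild-type libraries (70.7 ± 0.751% and 68.6 ± 0.549%), also without overlap. This sum was chosen after the values were seen. Among the other members, the leading transcript of Elavl2 (Elavl2-209) took 25.6 ± 1.29% in wild-type and 18.1 ± 0.767% in knockout CAD soma, and that of Celf1 (Celf1-206) 29.8 ± 1.72% and 38.3 ± 3.47%, both without overlap. In N2A soma the mean of Elavl2-209 lay in the opposite direction, at 28.9 ± 5.62% and 34.5 ± 2.78% with overlap, and Celf1-206 was at 29.7 ± 5.97% and 43.4 ± 2.95% without overlap. The estimate for Celf1-206 was unstable between replicates of the Q331K experiment. There it ran from 0% to 35.6% in soma with the WT transgene and from 0% to 29.2% with the Q331K transgene.

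**Figure D5:**
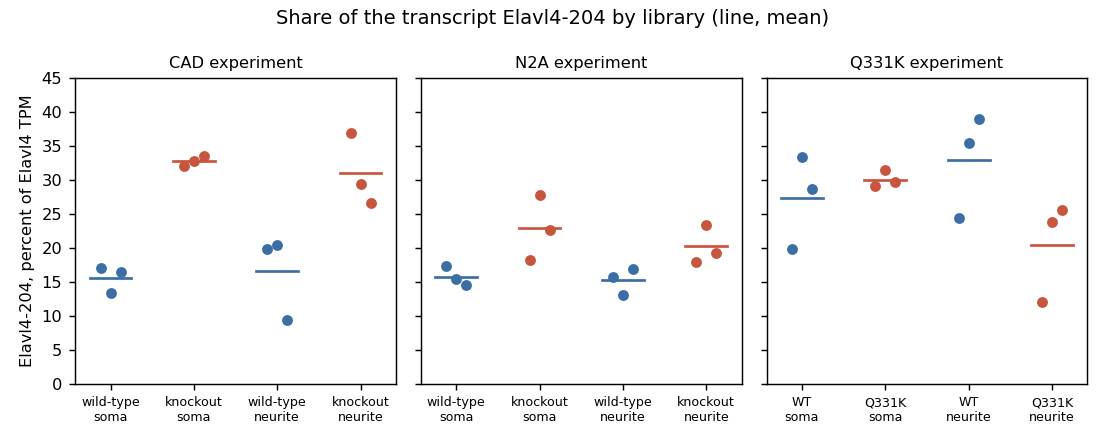
Share of Elavl4-204 in the TPM of Elavl4, in percent, in each library by experiment, genotype and compartment. Points are libraries, lines means of 3, blue the control genotype and red the knockout or Q331K genotype. Knockout points of CAD cells lie at 26.6% to 36.9%, above every wild-type point.

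Other genes of these pathways were taken from lists drawn up for this tissue. Their counts are to be read against the shares of all genes that rose and fell, which were 11.2% and 11.6% in CAD soma, 11.8% and 13.5% in CAD neurites, 10.9% and 5.15% in N2A soma and 6.48% and 5.1% in N2A neurites. Of 17 factors that act on AU-, GU- and U-rich elements, all tested in CAD and N2A cells, 1 rose and 1 fell in CAD soma (Parn, a poly(A) ribonuclease, at 0.32 ± 0.06, and Ptbp2, a neuronal splicing repressor, at -0.43 ± 0.08), and the median was 0.03 against 0.00 over all genes. In CAD neurites 4 rose and 1 fell (median 0.08 against 0.00), with Parn (0.39 ± 0.06), Hnrnpd (0.38 ± 0.07) and Hnrnpc (0.33 ± 0.07) ahead. In N2A soma 2 rose and 1 fell, Zfp36l2, which speeds the decay of AU-rich mRNAs, at 0.47 ± 0.11, Parn at 0.43 ± 0.07 and Tia1, a translation repressor, at -0.44 ± 0.08 (edgeR adjusted p = 0.000944), and none passed in N2A neurites. Of 8 splicing factors that oppose or accompany CELF proteins, 1 fell in CAD soma (11.6% of all genes did) and 3 in CAD neurites (13.5% did), with medians of -0.14 and -0.2 against 0.00 over all genes. Rbfox1 was at -0.61 ± 0.14 in soma and -0.78 ± 0.15 in neurites (edgeR adjusted p = 0.000589), beside Srrm4 at -0.37 ± 0.08 and Mbnl2, a CELF antagonist, at -0.20 ± 0.05 in neurites. In N2A cells Nova1 rose in soma (0.37 ± 0.09) and Rbfox2 fell in neurites (-0.32 ± 0.07). Of the protein partners of ELAV, none of 9 passed in CAD soma and Nxf1, the mRNA export receptor, rose in CAD neurites (0.41 ± 0.07). In N2A soma 2 of 11 rose (Anp32a at 0.53 ± 0.13 and Set at 0.49 ± 0.10) and Nxf1 fell (-0.29 ± 0.08).

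Among 21 RNAs known to be bound by ELAV proteins and tested in CAD cells, 6 rose and 4 fell in soma, where 11.2% and 11.6% of all genes did, with a median of 0.03 against 0.00 over all genes. The largest were the cyclins Ccnb1 (2.23 ± 0.11, edgeR adjusted p = 6.94e-10) and Ccna2 (2.21 ± 0.12), which drive the cell cycle, and Bdnf, a neurotrophin, which fell by 1.56 ± 0.13 on the log2 scale. In CAD neurites 5 rose and 4 fell (11.8% and 13.5% of all genes, median 0.00 against 0.00), led by Ccna2 (1.79 ± 0.12), Ccnb1 (1.73 ± 0.11) and Bdnf (-1.30 ± 0.13). In N2A soma 7 of 20 rose and 2 fell (10.9% and 5.15% of all genes, median 0.16 against -0.02), led by Ccna2 (1.51 ± 0.14), Ccnb1 (1.36 ± 0.08) and Ptma (0.96 ± 0.12, edgeR adjusted p = 5.33e-05), and in N2A neurites 2 rose and 4 fell (6.48% and 5.1% of all genes, median -0.08 against -0.01), with Fos at -0.84 ± 0.18. Among 12 RNAs known to be bound by CELF proteins, 3 rose and 2 fell in CAD soma, where 11.2% and 11.6% of all genes did, with a median of 0.18 against 0.00 over all genes. In CAD neurites 2 rose and 2 fell (median -0.01 against 0.00), in N2A soma 1 of 11 rose and 2 fell (median 0.09 against -0.02), and in N2A neurites 1 rose and 4 fell (median -0.22 against -0.01). Mapt, the gene of tau, fell by 0.82 ± 0.07 in CAD soma and by 1.04 ± 0.07 in CAD neurites on the log2 scale. Jun was at 0.55 ± 0.07 in CAD soma and 0.78 ± 0.11 in N2A soma, and Insr, the insulin receptor, fell by 1.14 ± 0.08 in N2A soma (edgeR adjusted p = 2.36e-07). The lists therefore held calls in both directions. No gene of the 5 lists passed for the change of the neurite over soma ratio or with the Q331K transgene in soma or neurites. Of all genes, 0.432% in CAD, 0.1% in N2A and 0.0% in the Q331K experiment passed for that change. With the Q331K transgene 0.0% passed in soma and in neurites. The absence of calls is therefore no result about the lists.

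Among the genes whose pattern over the 12 group means of log2 CPM (centred within each experiment, 13231 genes) was most like that of Celf4 were Diras2 (Pearson's r = 0.981) and Snap91 (0.98). For Elavl4 the 3 most alike were Pdcd4 (0.987), Baiap2l1 (0.983) and Zfp874b (0.974), and for Celf5 Grid2ip (0.991), Cacna1h (0.988) and Atxn1l (0.984). Among the members themselves, Celf4 and Elavl4 had an r of 0.73, Celf3 and Celf5 0.858 and Elavl1 and Elavl2 0.802, whereas Celf5 and Celf6 ran opposite to each other (-0.962). The points share libraries and include both compartments, and the correlations are descriptions without a test.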

How the data were processed

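RNA-seq of 36 mouse libraries was used, grouped by genotype and compartment from their labels. The authors used cutadapt to remove adapters and salmon for quantification (versions not given in the sources used here; mm10, with Gencode version 17 named in the methods), and they deposited an expected count and a TPM per transcript. Expected counts and TPM were summed to genes with GENCODE M21, matched by transcript ID without version, and counts were rounded. At most 0.129% of a library's counts had no gene. Counts were fitted in edgeR 4.0.16 (R 4.3.3; TMM, filterByExpr, glmQLFit and glmQLFTest, a means model of the 4 groups of an experiment, Benjamini-Hochberg over all genes, FDR of 0.01). The lines were compared in 1 fit of 24 libraries. For the change of the ratio, the same test on simulated counts drawn from the CAD libraries recovered 94 of 100 genes changed 2-fold and 99 of 100 changed 4-fold, with 3 false calls. It recovered 86 and 100 in N2A with 0 false calls, and 74 and 100 in Q331K with 5. The changed genes were drawn only from those above a cut-off on the mean level. Apart from that change, each gene had the same mean in all groups. The recovery therefore does not hold for barely detected genes such as Celf2 in N2A cells. Libraries of a group differed by a chi-square of 6.0 or more per degree of freedom, so none was taken as a duplicate. Replicate numbers were taken as pairs where the deviations from the group means of all 3 same-numbered pairs correlated above 0.1, which held for wild-type CAD soma and neurites (0.1002 to 0.23) and for wild-type and knockout N2A soma (0.1225 to 0.5486) and for no other comparison. Over each experiment, 3 of 6 same-compartment and 3 of 6 same-genotype pairs passed in CAD, 5 and 2 of 6 in N2A and 3 and 1 of 6 in the Q331K experiment. Motifs were counted in each gene's longest annotated 3′ UTR.

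Alternatives were DESeq2 1.42.0, an FDR of 0.05, scaling to the upper quartile, counts scaled by length, no filter or a minimum of 10 counts per library, replicate blocks and each library left out, and for transcripts and motifs a share of expected counts and the most abundant CAD transcript. Named genes are all 10 members, Tardbp, up to 3 called genes with the largest change per list and comparison, and the 3 genes most like a member, given here for 3 of them. A few genes that this rule or the marker lists name are not reported here. The members and lists were chosen with earlier results of these data known. Other libraries of the series were not used here.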

Additional observations from a re-analysis of the deposited data

Results flagged for a closer look

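The effect of TDP-43 loss differed between N2A and CAD cells, by an edgeR test of the difference over the 24 libraries, for Celf4 in soma (0.97 on the log2 scale, N2A minus CAD), Celf4 in neurites (0.90), Celf5 in neurites (1.17) and Celf6 in neurites (-0.63). Each of the 4 passed an FDR of 0.01 in all 24 fits that left out 1 library, with values of 0.86 to 1.09, 0.83 to 0.96, 1.05 to 1.33 and -0.67 to -0.55. Groups of 3 libraries are too small for a test of single outlying libraries.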

How the results depend on the processing

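No called value of a member changed sign under the alternatives run. Celf4 passed in soma and neurites of both lines under all 6 other settings of tool, scaling, filter and block at an FDR of 0.01 that kept every library, at 1.17 to 1.37 and 1.5 to 1.52 in CAD and 2.07 to 2.29 and 2.28 to 2.39 in N2A cells (log2). The number of members called moved by over 1.5 times in these cases. An FDR of 0.05 gave 8 in CAD neurites, 6 for the CAD ratio and 3 for the line difference in soma. With at least 10 counts in every library 5 were called for the CAD ratio, where 53.0% of all genes were. Upper-quartile scaling left 1 in N2A soma (16.3% of all genes). Length-scaled counts left 1 in N2A neurites (7.94% of all genes) and 1 for the Q331K ratio (23.0%). The shares of all genes at an FDR of 0.05, with the replicate block and with 1 library left out are not given here. Those counts are therefore no result about the members. DESeq2 called 1 for the change of the ratio in N2A cells (and 1909 of 17912 genes in all), and dropping the filter 1 in Q331K soma (141 of 25761). For the line difference in soma, DESeq2, upper-quartile scaling, no filter, at least 10 counts in every library and length-scaled counts each called 2. The cause was not tested. Leaving out 1 library gave 3 to 5 calls in CAD soma, 4 to 5 in CAD neurites, 3 to 4 for the CAD ratio, 1 to 2 in N2A soma and in N2A neurites, 6 to 7 for the N2A ratio, 0 to 2 for the Q331K ratio and 1 to 3 for the line difference in soma. As a share of expected counts, the leading transcript of Elavl4 changed by 19.6 percentage points in CAD soma and that of Elavl1 by -2.16, against 17.2 for Elavl4 and -4.4 for Elavl1 from TPM. The replicate block gave 5 calls for the CAD ratio and 3 for the line difference in soma. With a term shared by the soma and neurite libraries of a genotype and number, no call of the ratio or its change differed from the main fit. The replicate block called the members of the main test in N2A soma. In the other comparisons the numbers did not meet the rule for pairs given above. CAD wild-type and knockout soma missed it at replicate 2 (0.0894), beside 0.4817 and 0.2638 for replicates 1 and 3. A pairing of these soma libraries is therefore not excluded. Celf2, Celf4, Elavl2 and Elavl4 passed in CAD soma with the replicate block as well. Celf2 in N2A cells rests on 1 to 20 estimated counts per library.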
